A study of Homo sapiens with 9 samples.

Results

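Gene expression in 3 cultures of MCF10A.PM numbered n3 was compared with that in 3 cultures numbered n2, within each of 3 inducible hairpins. These 6 of the 9 libraries of the series were chosen by the replicate number in their labels, and the pairs share everything else that the labels state. MCF10A is a human mammary epithelial line that grows without limit in culture, and every culture carried ectopic MYC (pBABE-hygro-MYC) and the mutant PI3K of pMN-IRES-GFP-PI3KH1047R. A pLKO-tetON-puro construct held a scrambled hairpin (shSCR) or one of a pair of hairpins (shG9a_1, shG9a_4) that target EHMT2, which encodes the histone H3 methyltransferase G9a. Doxycycline at 2 µg/mL switched the hairpin on for 72 hours in all 9 cultures. The controls therefore also carried both oncogenes and received doxycycline. Total RNA of subconfluent cells was depleted of ribosomal RNA and sequenced in paired, stranded reads of 75 bases. The design text calls the replicates biological. The labels tie the numbers to no day, passage, batch or sequencing run, so a difference between n3 and n2 can come from culture or from library handling, and these cannot be told apart here. There is 1 library per hairpin and number, and the p-values of the fit measure how far the difference repeats over the 3 hairpins. The scatter they rest on was estimated from all 9 libraries, n1 included.

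As background, MCF10A cells share features of basal mammary epithelium. They hold to each other through cadherin junctions, tight junctions and desmosomes, and fill their cytoskeleton with keratins of stratified epithelium. NF-kB is a transcription factor that inflammatory signals release from its inhibitor and that induces chemokines, cytokines and its own inhibitors. MHC class II molecules present peptides to helper T cells. Their genes depend on the coactivator CIITA, which epithelial cells make chiefly under inflammatory signals. SREBP factors induce the enzymes of cholesterol and fatty acid synthesis when sterols are low, and NRF2 induces antioxidant enzymes.

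The n3 libraries were shallower than the n2 libraries, with 53065611 to 54477100 reads in genes against 63501259 to 76698004. The share of read pairs left unmapped was higher in n3 for all 3 hairpins, at 3.67 to 4.34% against 2.75 to 3.21% (exact two-sided sign-flip permutation test, p = 0.25, the smallest that 3 pairs allow). EHMT2, the hairpins' target, was at 45.2 CPM (read counts scaled to library size, per 1e6) in n2 and 45.4 in n3 of shSCR, at 22.6 and 21.03 in shG9a_1, and at 27.2 and 33.5 in shG9a_4. It was lower in both knockdowns than in shSCR within each number, and its difference between n3 and n2 did not pass the test (log2 difference 0.06, SE 0.11, adjusted p = 0.766 in edgeR). The basal markers KRT5, KRT14, KRT17 and TP63 were all present. The part of depth and unmapped share in any result given here was not tested, other than by thinning all libraries to the smallest, which called 1425 genes.

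**Figure D1:**
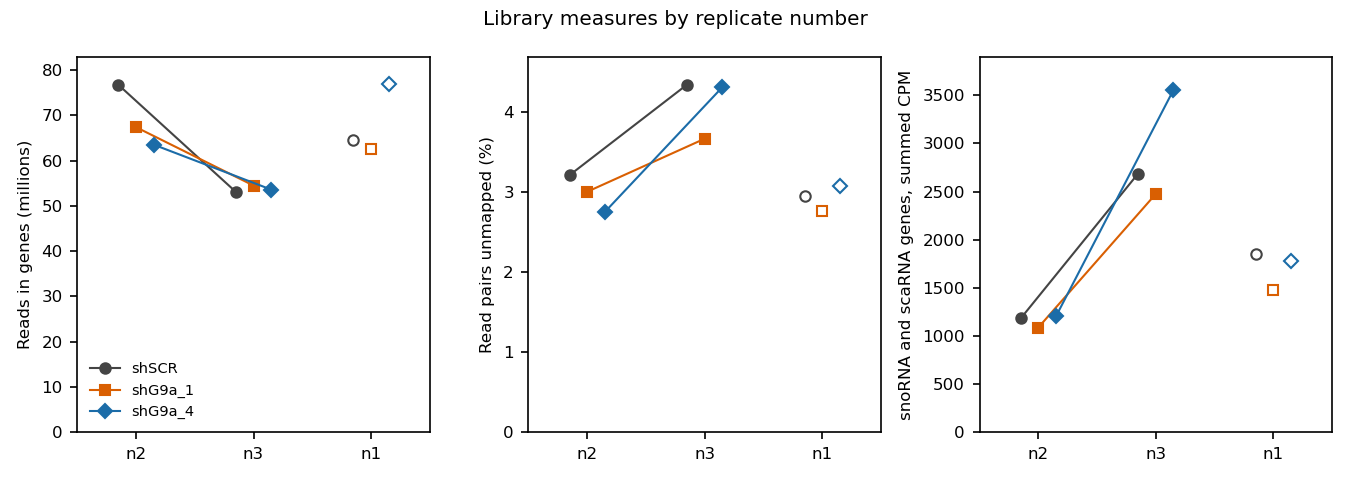
Reads in genes (axis in units of 1e6 reads), share of read pairs unmapped in percent, and summed CPM of snoRNA and scaRNA genes, each against the replicate number, with 1 point per library and a line joining n2 and n3 of a hairpin. All 3 n3 libraries were shallower than all 3 n2 libraries, and all 3 were higher in unmapped share and in small nucleolar RNA (2476 to 3554 against 1089 to 1204 CPM).

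Of 18435 genes tested, 650 were higher in n3 (3.53%) and 846 were lower (4.59%), in all 1496 genes or 8.11%, at an adjusted p under 0.05 in edgeR's quasi-likelihood test with the hairpin as a block. Each of the 1496 moved in the same direction in all 3 hairpins. Over all 18435 genes, 3913 were higher and 4345 lower in all 3. The groups did not overlap in level for 613 of the 650 and 781 of the 846, and this was not counted over all genes. Selection by the same test favours both traits, so neither is separate support for the calls. A change of 2-fold or more was found for 119 of the higher and 164 of the lower genes. The median log2 difference over all genes was 0.003, and its median SE was 0.12. The count depended on single libraries. It was 678 without the n2 library of shSCR, 442 without its n3 library, 2313 without n2 of shG9a_1, 475 without its n3 library and 359 without n3 of shG9a_4. Without a whole hairpin it was 238 (shSCR), 1485 (shG9a_1) and 433 (shG9a_4).

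**Figure D2:**
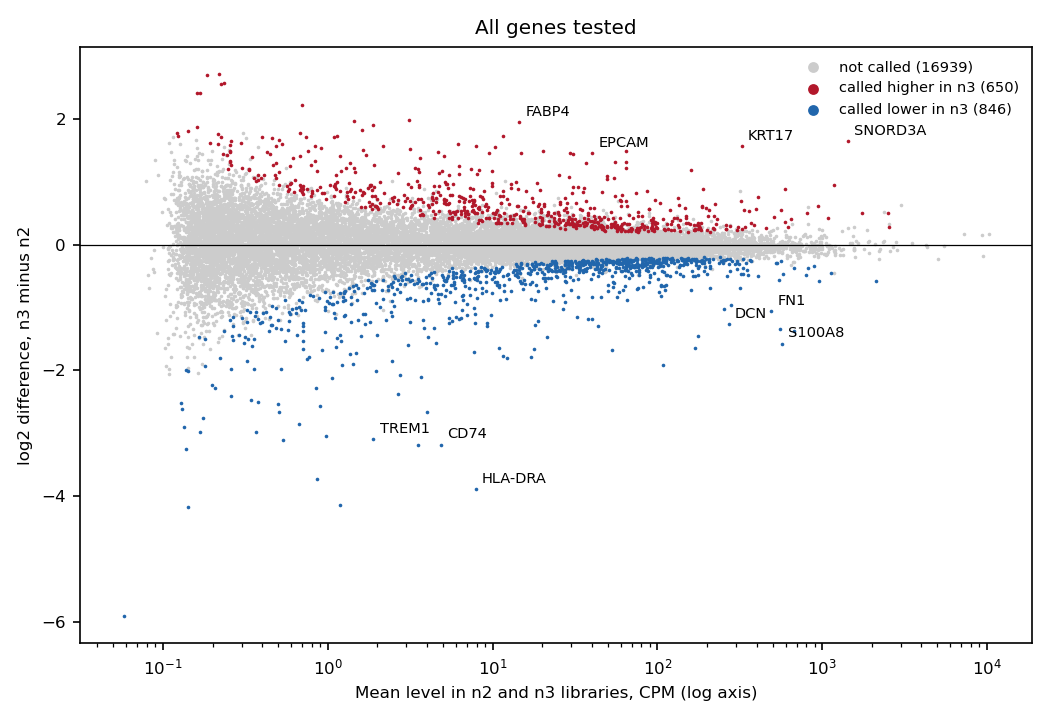
Log2 difference of n3 and n2 from the fit against the mean level in CPM on a log axis, 1 point per gene tested, coloured by call. The 650 genes called higher and 846 called lower lie at all levels, and HLA-DRA, CD74 and TREM1 are among the points farthest below 0.

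Many of the largest falls were of genes of MHC class II presentation, a group of 20 genes put together after their values were seen. Of 19 tested, 13 were called lower and 0 higher, against 4.59% and 3.53% of all genes, with a median log2 difference of −2.10. Because the list was drawn up from these values, the count describes the fall and is no separate support for it. HLA-DRA, the alpha chain of the HLA-DR dimer, was at 9.45, 19.1 and 15.9 CPM in n2 of shSCR, shG9a_1 and shG9a_4, and at 0.782, 1.45 and 0.788 CPM in n3. Every n3 library was thus far under every n2 library, a 14.8-fold fall (log2 difference −3.89, SE 0.23, adjusted p = 1.05e-05 in edgeR). CD74, the chaperone that guards the groove of class II molecules, went from 4.92, 12.6 and 8.66 CPM to 0.745, 1.23 and 0.861 CPM (log2 difference −3.18, SE 0.28, adjusted p = 8.96e-05).

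CIITA, the coactivator of these genes, fell too. It went from 11.4, 22.4 and 16.4 CPM to 4.83, 5.51 and 5.22 CPM, with no overlap (log2 difference −1.65, SE 0.15, adjusted p = 0.000119 in edgeR). HLA-DPA1, the alpha chain of HLA-DP, went from 4.35 to 8.62 CPM in n2 to 0.531 to 1.02 in n3, and HLA-DMA and HLA-DMB, the 2 chains of the peptide exchange factor HLA-DM, fell by 2.10 and 3.05 on the log2 scale. RFX5, a subunit of the complex that recruits CIITA, fell by 0.38 from 93.3, 98.3 and 103.9 CPM to 78.4, 73.8 and 74.9 CPM. CTSS, the protease that trims CD74, fell by 1.19. HLA-DRB1, HLA-DPB1, HLA-DRB5, HLA-DQA1 and HLA-DOA were also called lower, but stood on few reads in n3 (at most 0.205 CPM) and, for HLA-DRB1 and HLA-DRB5, on near-identical copies that share reads. HLA class I moved less: of 19 genes of class I presentation tested, 2 were called lower, HLA-B by 0.83 and HLA-E by 0.23 (5 with the GC-corrected fit, and 1 in most fits without 1 library). Between 11 and 14 class II genes were called lower when any library or hairpin was left out or the fit was corrected for GC content.

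CCAAT, a promoter element bound by NF-Y, is known to stand beside the CIITA-dependent elements of class II genes. Of the 13 called genes, 10 had an entry in the RefSeq promoter table (GRCh38.p14), and 9 of these held CCAAT or its reverse complement in the 250 bases before the start, against 35% of the 11607 promoters of tested genes that the table holds. Of the 5 class II genes with an entry that were tested and not called lower, 2 held it. CCAAT was searched after the values were seen. The promoter of HLA-DMB is shown as the example, chr6:32941029-32941278 on the minus strand, 5′ to 3′, with the match in capitals.
HLA-DMB: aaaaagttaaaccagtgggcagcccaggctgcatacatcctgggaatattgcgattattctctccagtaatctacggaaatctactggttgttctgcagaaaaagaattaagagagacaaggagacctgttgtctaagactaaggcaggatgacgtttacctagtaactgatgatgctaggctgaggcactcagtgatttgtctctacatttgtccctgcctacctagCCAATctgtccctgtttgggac

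Inflammatory genes were lower in n3 as a group. Of 44 NF-kB and inflammatory targets tested, 24 were called lower and 1 higher, against 4.59% and 3.53% of all genes, and the median log2 difference was −0.52. The count called lower stayed at 16 to 26 when any library or hairpin was left out. The summed level of the list was 9331, 10637 and 10179 CPM in n2 and 6291, 7705 and 6279 CPM in n3. CXCL1, a chemokine for neutrophils, was at 775, 797 and 804.5 CPM in n2 and at 298, 390.3 and 265 CPM in n3. All n3 libraries were below all n2 libraries (2.54-fold lower, SE 0.11 on the log2 scale, adjusted p = 5.61e-05 in edgeR).

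CCL20, a chemokine for dendritic and T cells, went from 273, 262 and 239 CPM to 90.9, 116.7 and 80.9 CPM, a 2.73-fold fall. The cytokine gene IL6 went from 30.3, 23.8 and 24.9 CPM to 12.3, 11.3 and 10.4 CPM, a 2.32-fold fall. PTGS2, the inducible cyclooxygenase, fell by 1.47 on the log2 scale, TNFAIP6, a secreted hyaluronan-binding protein, by 1.68, and the chemokine CXCL5 by 1.79. The groups did not overlap for CXCL1, CCL20, IL6, PTGS2, TNFAIP6 or CXCL5, and each of these was called under all 22 alternatives. The inhibitors that NF-kB induces fell as well: NFKBIA, which holds NF-kB in the cytoplasm, went from 214 to 232 CPM in n2 to 164 to 167 CPM in n3 (log2 difference −0.42, SE 0.05, adjusted p = 0.00118 in edgeR), and TNFAIP3, a ubiquitin-editing enzyme that dampens the pathway, fell by 0.88. The exception was CCL2, a chemokine for monocytes, which was called higher with a log2 difference of 1.49 (SE 0.38, adjusted p = 0.0361) but stood at 0.275 to 0.575 CPM in n3. SAA1 and SAA2, acute phase proteins with near-identical sequences, were called lower and are uncertain for that reason.

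The kappa B element, to which NF-kB binds, was searched by its consensus on both strands after the values were seen. It lay in the 250 bases before the start of 12 of 21 called genes with a promoter entry, of 4 of 14 listed genes that were not called, and of 11.5% of the 11607 promoters. These 12 included CXCL1, CXCL2, CXCL3, CXCL5, CCL20, IL6, NFKBIA and TNFAIP3. A match is a description of the letters and shows no binding. The promoters of CXCL1 (chr4:73869143-73869392, plus strand, 2 overlapping matches) and NFKBIA (chr14:35404750-35404999, minus strand, 1 match) are shown 5′ to 3′ as a target and an inhibitor of the pathway, with the matches in capitals.
CXCL1: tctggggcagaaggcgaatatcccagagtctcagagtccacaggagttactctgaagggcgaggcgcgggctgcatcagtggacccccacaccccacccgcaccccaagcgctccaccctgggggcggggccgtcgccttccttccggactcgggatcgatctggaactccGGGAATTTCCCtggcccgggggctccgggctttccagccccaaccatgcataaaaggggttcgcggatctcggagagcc
NFKBIA: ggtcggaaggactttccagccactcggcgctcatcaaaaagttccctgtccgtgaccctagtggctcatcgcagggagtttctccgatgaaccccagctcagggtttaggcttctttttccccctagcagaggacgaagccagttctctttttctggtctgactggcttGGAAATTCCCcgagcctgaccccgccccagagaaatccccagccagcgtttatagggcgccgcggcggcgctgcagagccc

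Of 15 genes of S100 proteins tested, 4 were called lower and 4 higher, against 4.59% and 3.53% of all genes. The count called higher was 2 without n2 or n3 of shSCR and in other fits. The median log2 difference was −0.03. S100A8 and S100A9, the subunits of calprotectin, a zinc-binding antimicrobial protein, fell by 1.57 and 1.37 on the log2 scale. S100A8 was at 565, 964 and 1050 CPM in n2 and at 258, 309 and 282 CPM in n3, a 2.98-fold fall with no overlap (adjusted p = 0.000135 in edgeR). S100A7 and S100A12 were the others called lower, whereas S100A14, S100A2, S100A10 and S100A16 were called higher. S100A14, an epithelial member of the family singled out after its values were seen, went from 33.4, 31.9 and 36.7 CPM to 107.7, 81.1 and 97.5 CPM, a 2.79-fold rise (SE 0.07 on the log2 scale, adjusted p = 5.36e-06). TREM1, a receptor that amplifies inflammation, was at 2.88, 4.13 and 3.12 CPM in n2 and at 0.373, 0.575 and 0.256 CPM in n3, an 8.53-fold fall. SAMSN1, an adaptor known from lymphocytes, ALOX5AP, which supplies the leukotriene-forming lipoxygenase, HSD11B1, which regenerates active glucocorticoid, and TRIM31, a ubiquitin ligase, fell by 2.66, 2.28, 2.38 and 2.57. The fall of TRIM31 was 1.26 when reads of both strands were counted. Among 48 interferon-stimulated genes tested, 6 were called lower and 0 higher (2 or 3 without the n3 library of any hairpin, or without the hairpin shSCR or shG9a_4), with GBP1, an interferon-induced GTPase, down by 0.59 and GBP2 by 0.78.

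Some of these genes are also known from leukocytes. Of 14 leukocyte markers, 3 reached the level needed for a test, HLA-DRA, CSF1R and CD14. CSF1R (log2 difference 0.36, adjusted p = 0.235 in edgeR) and CD14 (−0.29, adjusted p = 0.383) did not pass. The pan-leukocyte gene PTPRC was at 0.015 to 0.048 CPM in n2 and at 0 to 0.073 CPM in n3, and MS4A1 and NKG7 had 0 reads in all 6 libraries. The 11 markers under the filter were at no more than 0.202 CPM in any of the 6 libraries. CSF1R and CD14 were above that, at 1.12 to 2.02 and 3.86 to 6.24 CPM. The summed level of the 3 tested markers, HLA-DRA included, was 15.5 to 26.7 CPM in n2 and 6.67 to 7.33 CPM in n3, and its part in the result was not tested.

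Genes of the matrix and of mesenchymal cells moved in both directions. FN1, fibronectin, was at 751, 674 and 547 CPM in n2 and at 314, 435 and 229.5 CPM in n3, a 2.08-fold fall without overlap (log2 difference −1.06, SE 0.14, adjusted p = 0.00133 in edgeR). DCN, the proteoglycan decorin, singled out after its values were seen, went from 327, 409.9 and 407 CPM to 155, 190.5 and 135 CPM, a 2.40-fold fall. LUM, a related proteoglycan, fell by 1.25, LOX, which crosslinks collagen, by 0.83, and ZEB1, a repressor of epithelial genes, by 0.41. Against these, TAGLN, an actin-binding protein, rose by 1.12, and COL12A1 and COL6A1, collagens, by 0.55 and 0.91. In all, 6 of 43 matrix and mesenchymal genes were called lower (11 without n2 of shG9a_1, 3 without n3 of shG9a_4, 13 with correction for GC content) and 4 higher. The count called higher was 1 without the hairpin shSCR and 2 without n3 of any hairpin. It was 8 without n1 of shG9a_1 and 9 with correction for GC content. Over all genes, 4.59% were called lower and 3.53% higher. VIM, vimentin, also singled out afterwards, did not pass (log2 difference −0.13, SE 0.06). TIMP3, an inhibitor of matrix proteases, rose from 29.9, 29.9 and 38.5 CPM to 65.7, 65.3 and 69.2 CPM (2.06-fold, adjusted p = 3.91e-05), while TIMP1 fell by 0.96.

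DCN, LUM and ACTA2 are also markers of fibroblasts. Of 13 fibroblast markers, 8 were tested. Of these, 3 were called lower and 0 higher, against 4.59% and 3.53% of all genes. The count called lower was 2 without n2 of shSCR, n3 of any hairpin, or the hairpin shSCR or shG9a_4. It was 5 without n2 of shG9a_1, and 4 without the hairpin shG9a_1 or with correction for GC content. The summed level of the 8 tested was 389 to 480 CPM in n2 and 184 to 253 CPM in n3. DCN made up most of this sum, at 327 to 409.9 CPM in n2 and 135 to 190.5 CPM in n3. The collagens COL1A2 and COL3A1, PDGFRA, TCF21 and THY1 stayed under the filter, at no more than 0.348 CPM in any of the 6 libraries, and COL1A1 was at 1.03 to 1.85 CPM in n2 and 1.10 to 1.92 CPM in n3 (adjusted p = 0.985 in edgeR). In bulk RNA, fewer cells of a type and less RNA per cell cannot be told apart.

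Genes listed as responding to TGF-beta were lower more often than higher. Of 27 tested, 11 were called lower and 2 higher, against 4.59% and 3.53% of all genes. The median log2 difference was −0.19. The list does not separate genes that the pathway induces from those it represses, and the activity of the pathway was not tested. The count called lower was 3 without the shSCR hairpin, 5 without the n3 library of shSCR or of shG9a_4, 6 without n2 of shSCR or n3 of shG9a_1, and 7 without the shG9a_4 hairpin. ID2, an inhibitor of helix-loop-helix factors, was at 19.02, 20.8 and 17.3 CPM in n2 and at 5.18, 5.96 and 5.24 CPM in n3, a 3.50-fold fall (SE 0.17 on the log2 scale, adjusted p = 0.000126 in edgeR). ID1 and ID3, of the same family, fell by 0.65 and 0.73. SMAD6 and SMAD7, the inhibitory SMADs, fell by 0.71 and 0.43, SKIL, a repressor of SMADs, by 0.67, and the ligand TGFB2 by 0.64. The 2 members that rose were TAGLN and THBS1.

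Epithelial adhesion genes were higher in n3. Of 28 genes of tight and adherens junctions tested, 12 were called higher and 1 lower, against 3.53% and 4.59% of all genes, with a median log2 difference of 0.25. CDH1, which encodes E-cadherin and was singled out after its values were seen, went from 13.2, 14.7 and 23.04 CPM to 45.2, 41.95 and 48.0 CPM. The lowest n3 library was above the highest n2 library, a 2.72-fold rise (log2 difference 1.45, SE 0.12, adjusted p = 5.61e-05 in edgeR). EPCAM, an epithelial adhesion molecule, also singled out, went from 19.8, 15.95 and 29.2 CPM to 69.2, 44.9 and 61.5 CPM, a 2.74-fold rise. It belongs to a list of simple epithelial keratins and luminal genes, which was mixed. Of 15 tested, 2 were called higher (EPCAM and KRT18) and 1 lower (PRLR), and 9 were higher and 6 lower at any p. These calls were 1 and 0 without n3 of any hairpin. The median log2 difference was 0.16 in shSCR, −0.09 in shG9a_1 and 0.32 in shG9a_4.

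OCLN, MARVELD2 and MARVELD3, the related membrane proteins of tight junctions, were each called higher. OCLN, occludin, was at 0.689, 1.17 and 1.46 CPM in n2 and at 3.02, 3.12 and 3.50 CPM in n3, a 2.97-fold rise without overlap (SE 0.21 on the log2 scale, adjusted p = 0.00122 in edgeR). MARVELD3 rose by 1.96 on the log2 scale and MARVELD2 by 0.47. CDH3, P-cadherin of basal cells, rose by 0.82, CLDN7, a claudin, by 0.88, and CRB3, a polarity protein, by 1.16. ESRP1, the splicing factor of epithelial isoforms, went from 2.52, 2.14 and 2.77 CPM to 7.99, 5.09 and 7.69 CPM, a 2.76-fold rise. The member called lower was CLDN12. The count called higher was 5 without the shSCR hairpin, 8 without the n3 library of shSCR and 7 without that of shG9a_4.

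Keratins and desmosomes moved with the junctions. The basal and stress keratin list, TP63 included, had 14 genes tested. Of these, 9 were called higher and 0 lower, against 3.53% and 4.59% of all genes. Their median log2 difference was 0.58. KRT17 was at 151, 199 and 144.5 CPM in n2 and at 442, 560.3 and 452 CPM in n3, a 2.94-fold rise without overlap (SE 0.13 on the log2 scale, adjusted p = 7.2e-05 in edgeR). KRT14 rose by 1.08, KRT16 by 1.22 and KRT5 by 0.50, and TP63, the transcription factor of basal epithelium, went from 2.33, 2.39 and 4.26 CPM to 6.48, 5.70 and 7.07 CPM. KRT14, KRT16, KRT17 and KRT6A have near-identical copies and their counts are uncertain. Of 11 desmosome genes, 5 were called higher and 0 lower. DSP, the plaque protein, rose by 0.57, DSG3, a cadherin, by 0.70, and JUP, plakoglobin, by 0.62. The keratin count was 4 without the n3 library of shSCR and 5 without that of shG9a_4 or the shSCR hairpin, and the desmosome count was 2 without any n3 library or the n2 library of shSCR and 0 without the shSCR hairpin. Corrected for GC content, 9 genes of the keratin list and 10 desmosome genes were called higher.

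Since ZEB1 binds the E-box CACCTG and represses epithelial genes, that motif was searched in the same promoters after the values were seen. It or its reverse complement lay in 3 of the 5 called junction genes with an entry (CRB3, OCLN and PATJ), in 3 of 10 listed genes that were not called, and in 15.8% of the 11607 promoters. The promoter of OCLN (GRCh38.p14, chr5:69492297-69492546, plus strand) is printed as the tight junction gene among the 3, with the match in capitals.
OCLN: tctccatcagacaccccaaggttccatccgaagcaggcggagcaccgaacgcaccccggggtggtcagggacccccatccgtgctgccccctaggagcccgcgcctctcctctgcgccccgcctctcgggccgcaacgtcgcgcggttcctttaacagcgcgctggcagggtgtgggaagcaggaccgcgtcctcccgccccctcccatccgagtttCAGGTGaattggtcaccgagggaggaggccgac

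**Figure D3:**
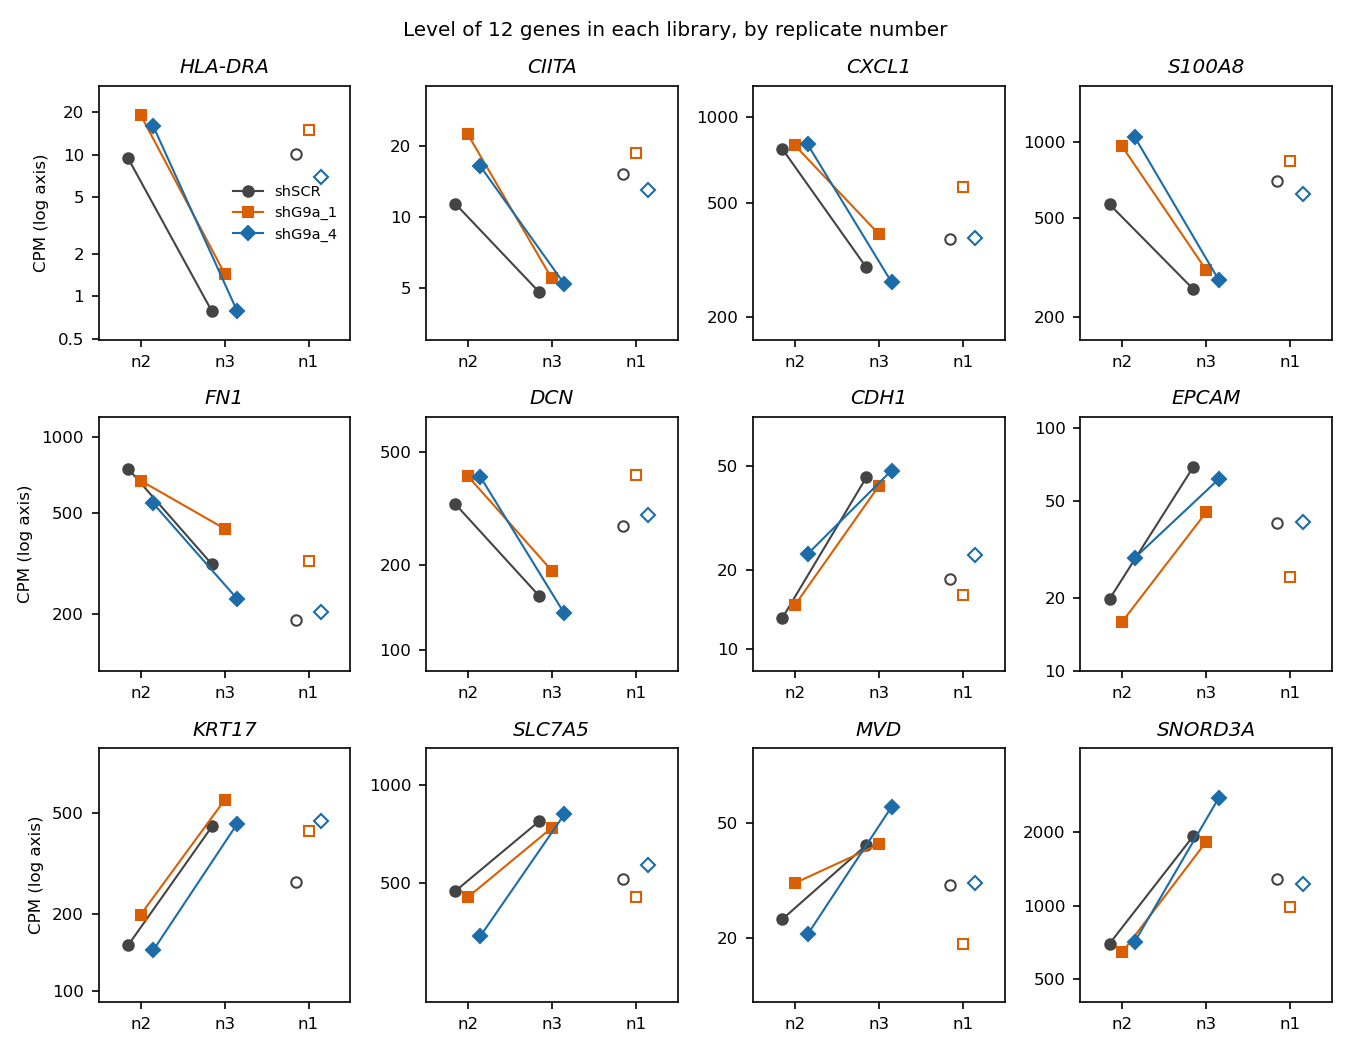
CPM on a log axis for 12 genes, 1 point per library, with n2 and n3 joined by hairpin and n1 as open points beside them. HLA-DRA, CIITA, CXCL1, S100A8, FN1 and DCN were lower in n3 in all 3 hairpins, and CDH1, EPCAM, KRT17, SLC7A5, MVD and SNORD3A were higher.

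Enzymes of cholesterol synthesis were higher in n3. Of 25 genes of cholesterol synthesis and uptake tested, 14 were called higher and 0 lower, against 3.53% and 4.59% of all genes. The median log2 difference was 0.33. FDPS, which makes farnesyl diphosphate, was at 413, 401 and 479 CPM in n2 and at 569.6, 576 and 607 CPM in n3, a 1.36-fold rise (SE 0.06 on the log2 scale, adjusted p = 0.00232 in edgeR). DHCR7, a reductase of the last steps, rose by 0.42, and SREBF2, the factor that drives the pathway, by 0.35. MVD, mevalonate decarboxylase, went from 23.3, 31.05 and 20.6 CPM to 42.02, 42.3 and 57.0 CPM. The changes were smaller than those of the inflammatory genes and more dependent on single libraries. The count called higher was 3 without n2 of shSCR, 7 without n3 of shSCR, 2 without n3 of shG9a_1, 3 without n3 of shG9a_4, 5 without the shG9a_4 hairpin and 0 without the shSCR hairpin, and 21 with correction for GC content.

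In fatty acid synthesis 5 of 18 genes were called higher and 1 lower, against 3.53% and 4.59% of all genes. SCD, the desaturase that makes oleate, went from 273.5, 267 and 379.6 CPM to 542, 461 and 541 CPM, a 1.68-fold rise (SE 0.15 on the log2 scale, adjusted p = 0.0109 in edgeR). SREBF1, its regulator, rose by 0.78. ACSL4, which activates polyunsaturated fatty acids, fell by 0.46. The count called higher was 0 without the n3 library of shG9a_1 or of shG9a_4, 1 without n2 of shSCR or the shSCR hairpin, 2 without n3 of shSCR or the shG9a_4 hairpin, and 3 without n1 of shG9a_4. FABP4, a carrier of fatty acids outside these lists, rose 3.86-fold, from 5.41, 7.41 and 4.58 CPM to 27.4, 28.4 and 13.9 CPM. The SREBP motif TCACNCCAC, searched on both strands, lay in 1 of the 10 called cholesterol genes with a promoter entry, SREBF2, against 0.862% of all 11607 promoters.

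NRF2 targets were higher as well, 13 of 28 tested and 0 lower, against 3.53% and 4.59% of all genes. Their median log2 difference was 0.26. HMOX1, heme oxygenase, was at 17.8, 31.0 and 13.9 CPM in n2 and at 33.6, 78.7 and 45.3 CPM in n3, and the lowest n3 library was only just above the highest n2 library (2.47-fold higher, SE 0.16 on the log2 scale, adjusted p = 0.000733 in edgeR). NQO1, a quinone reductase, went from 760, 801 and 668 CPM to 1050, 1315 and 1045 CPM, a 1.52-fold rise with no overlap. TXNRD1, thioredoxin reductase, rose by 0.50, AKR1B10, an aldehyde reductase, by 1.00, and GCLM and GCLC, the subunits of the enzyme that starts glutathione synthesis, by 0.24 and 0.21. The summed level of the list was 9485 to 10541 CPM in n2, 11184 to 12499 in n3 and 12268 to 14952 in n1, and within each hairpin n1 was the highest. The count called higher was 4 to 8 without n3 of any hairpin, n1 of shG9a_4, or the hairpin shSCR or shG9a_4.

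Of 31 ATF4 and amino acid response genes, 6 were called higher and 0 lower, against 3.53% and 4.59% of all genes. Their median log2 difference was −0.02. The count was 3 without n3 of shG9a_4 or the shSCR hairpin. SLC7A5 and SLC3A2, the light and heavy chain of the large neutral amino acid transporter, rose 1.84-fold and 1.46-fold. SLC7A5 was at 470.4, 451 and 342.5 CPM in n2 and at 772, 737 and 810.1 CPM in n3 (SE 0.11 on the log2 scale, adjusted p = 0.0012 in edgeR). SLC7A11, the cystine transporter, went from 149, 152 and 143.5 CPM to 210.3, 251.5 and 221 CPM, and TRIB3, a pseudokinase of the stress response, rose by 0.62. Of 10 AhR targets 4 were called higher, among them CYP1A1, a monooxygenase, by 0.74 and ALDH3A1 by 0.92.

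**Figure D4:**
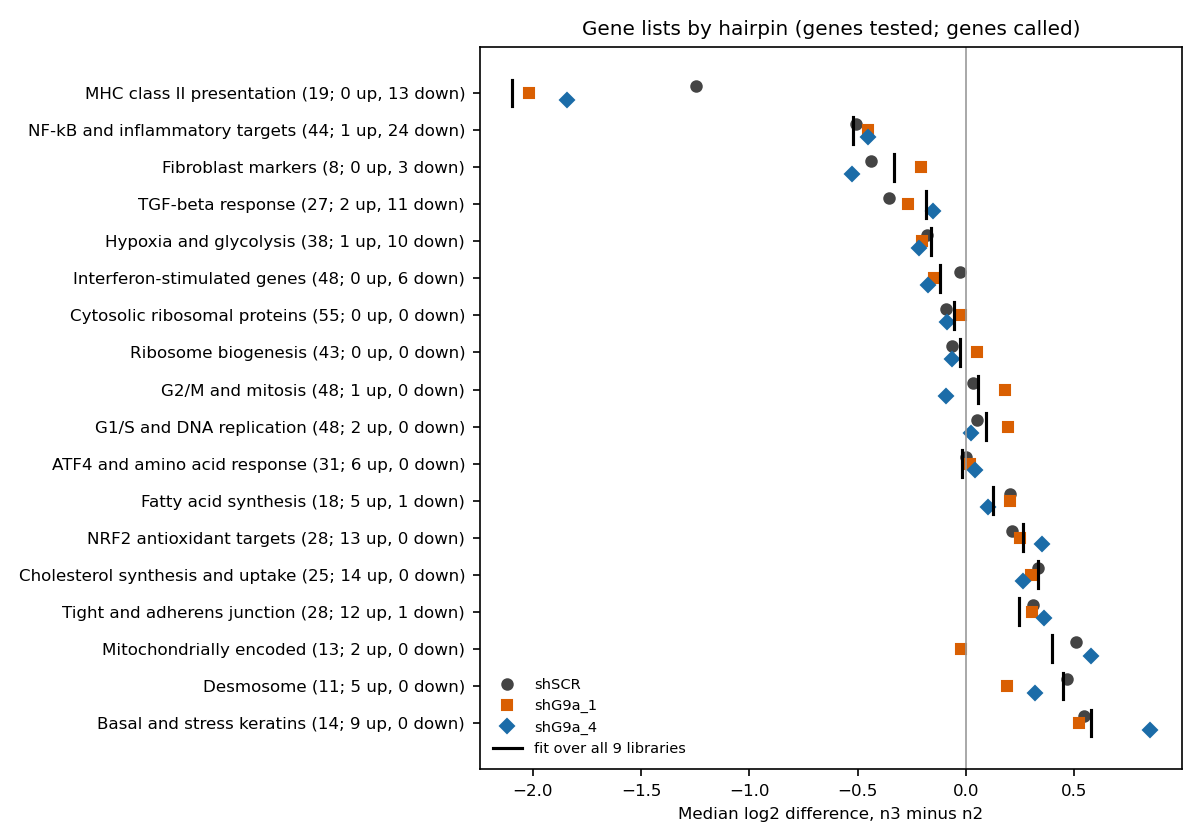
Median log2 difference of n3 and n2 for 18 gene lists in each hairpin (points) and in the fit (bars), with the genes tested and called in the row names. The medians of MHC class II, NF-kB and inflammatory targets, TGF-beta response and hypoxia genes lay below 0 and those of cholesterol genes, NRF2 targets, junction genes, desmosome genes and basal keratins above 0 in all 3 hairpins, while mitochondrially encoded genes were near 0 in shG9a_1 (−0.02) only.

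Hypoxia genes were lower more often than higher, 10 against 1 of 38 tested, with a median log2 difference of −0.16. Over all genes, 4.59% were called lower and 3.53% higher. NDRG1, a stress-induced gene, was at 32.6, 32.6 and 37.0 CPM in n2 and at 18.5, 18.6 and 21.3 CPM in n3, a 1.75-fold fall (SE 0.11 on the log2 scale, adjusted p = 0.00122 in edgeR). BNIP3 and BNIP3L, receptors for the removal of mitochondria, fell by 0.49 and 0.68, KDM3A, a histone H3 lysine 9 demethylase, by 0.40, and EGLN1, an oxygen sensor, by 0.30. SLC2A1, the main glucose transporter, was the member that rose, by 0.27. The summed level of the list, which the glycolytic enzymes dominate, was 16499 to 17478 CPM in n2 and 16441 to 17009 CPM in n3. The count called lower was 2 to 5 without n3 of any hairpin, or without the hairpin shSCR or shG9a_4, and 17 with correction for GC content. The hypoxia response motif ACGTGC lay in 3 of 7 called genes with a promoter entry (BNIP3, EGLN1 and LOX), in 9 of 26 not called, and in 7.52% of all.

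Other lists held smaller numbers of called genes. Their shares called lower were above the 4.59% of all genes, but rested on few genes and varied with the libraries used. Of 23 glucocorticoid-induced genes 5 were called lower and 0 higher (3 without n3 of any hairpin, or without the hairpin shSCR or shG9a_4). KLF9, a factor that steroid hormones induce, went from 8.64, 10.3 and 11.8 CPM to 4.69, 5.36 and 5.26 CPM. Of 8 metallothionein and zinc genes 3 were called lower, among them the zinc exporter SLC30A1 by 0.47 (1 without n3 of shSCR or shG9a_1, 0 without the hairpin shSCR, 5 with the GC-corrected fit). Of 32 p53 targets 3 were called lower, among them RRM2B, a ribonucleotide reductase subunit, by 0.42. That count was 1 without n2 of shSCR or n3 of shG9a_1 or shG9a_4, 0 without the hairpin shSCR or shG9a_4, 5 without n2 of shG9a_1 and 8 with the GC-corrected fit. Of 26 YAP and TEAD targets 4 were lower and 2 higher, against 4.59% and 3.53% of all genes, with CCN1 and CCN2, secreted matricellular proteins, down by 0.71 and 0.61. Without n2 or n3 of shSCR, n3 of shG9a_4, or the hairpin shSCR or shG9a_4, 1 was lower, and without n3 of shG9a_1 or shG9a_4 or any hairpin 0 were higher. ITGB4, of the hemidesmosome, rose by 0.85 while ITGAV, ITGA5 and ITGA1, subunits of receptors for vitronectin, fibronectin and collagen, fell by 0.30, 0.31 and 0.38. Of 22 genes tested in the integrin and hemidesmosome list 3 were called higher and 3 lower, against 3.53% and 4.59% of all genes. Both counts were 0 without n2 or n3 of shSCR, n3 of shG9a_1, or the hairpin shSCR.

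Growth factor genes were mixed. Of 18 genes of the EGFR family and its ligands, 3 were called higher and 1 lower, against 3.53% and 4.59% of all genes. EPGN, a ligand of EGFR, was at 176, 193 and 153 CPM in n2 and at 240.4, 336.5 and 247 CPM in n3, a 1.55-fold rise without overlap (adjusted p = 0.0187 in edgeR), and EGFR itself rose by 0.25 and the ligand NRG1 by 0.75. No gene of this list was called without the n3 library of any 1 hairpin or without the hairpin shG9a_4. ERRFI1, a feedback inhibitor of EGFR, fell by 0.32. Among 18 genes listed under ERK feedback, 4 were called lower and 1 higher. DUSP6, a phosphatase of ERK, and SPRED1, an inhibitor of RAS signalling, fell by 0.28 each, while DUSP7, a related phosphatase, rose by 0.50. The other genes of the list called lower were the receptors EPHA4, by 1.11, and IL1RL1. These counts were 1 lower and 0 higher without the n3 library of any 1 hairpin, or without the hairpin shSCR or shG9a_4, and 2 were lower without n2 of shSCR or shG9a_4. IL1RL1, the receptor for interleukin 33, fell 4.01-fold, from 3.16, 3.01 and 3.28 CPM to 0.820, 0.613 and 0.934 CPM.

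Genes of the cell cycle and of ribosomes were called at near or under the share of all genes, 3.53% higher and 4.59% lower. At any p, 39 of 48 G1/S and 33 of 48 G2/M genes were higher, against 9315 of all 18435 genes tested. Of 48 G1/S genes 2 were called higher (POLE by 0.33 and CHAF1A by 0.24), of 48 G2/M genes 1 (CDC25B, by 0.35), and of 55 cytosolic ribosomal proteins and 43 ribosome biogenesis genes 0 in either direction in edgeR, with 6 and 2 at an unadjusted p under 0.05. DESeq2 called 1 ribosomal protein gene lower and 0 ribosome biogenesis genes. The GC-corrected fit called 10 ribosomal protein and 2 ribosome biogenesis genes lower, and 5 G1/S and 5 G2/M genes higher, whereas 0 G1/S and 0 G2/M genes were called higher without n3 of any 1 hairpin. CHAF1A kept its call in 7 of 22 alternatives, and POLE and CDC25B in 15 each. MYC, whose own and ectopic transcripts are counted together, stood at 169, 175 and 144 CPM in n2 and at 204, 198.5 and 218 CPM in n3, a 1.27-fold rise (SE 0.08 on the log2 scale, adjusted p = 0.0212 in edgeR). The call was lost without n2 or n3 of shSCR, or n3 of shG9a_1 or shG9a_4, or without the hairpin shSCR or shG9a_4. PIK3CA, which cannot be told from its ectopic copy either, was called lower at an adjusted p of 0.0497 (log2 difference −0.20) and kept the call in 4 of 22 alternatives. Of 33 genes reported as MYC-activated 1 was called higher, and of 29 reported as MYC-repressed 5 were called lower and 3 higher. The MYC-activated count was 0 in most fits without 1 library and 3 with the GC-corrected fit. Of the MYC-repressed genes, 2 were lower without the hairpin shSCR, 3 without n2 or n3 of shSCR, n3 of shG9a_1 or shG9a_4 or the hairpin shG9a_4, and 8 with the GC-corrected fit, and 0 were higher without n3 of shSCR or shG9a_1 or the hairpin shSCR. EHMT1, the partner of G9a, did not pass (0.08, adjusted p = 0.652), and of 21 genes of H3K9 methylation 1 was called higher, CBX5, a heterochromatin protein, by 0.28, and 2 lower (0 in either direction without n3 of any 1 hairpin).

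Small nuclear and nucleolar RNAs were higher in n3. Of 157 snoRNA and scaRNA genes tested, 28 were called higher and 0 lower, against 3.53% of all genes, with a median log2 difference of 0.30. These RNAs guide the modification and cutting of ribosomal and spliceosomal RNA. SNORD3A, the U3 RNA, which is needed to process the ribosomal precursor and has near-identical copies, was at 699.8, 645 and 712.5 CPM in n2 and at 1928, 1820 and 2749 CPM in n3, a 3.12-fold rise (SE 0.11 on the log2 scale, adjusted p = 1.31e-05 in edgeR). SNORA73B went from 103.5, 91.7 and 96.1 CPM to 218, 209 and 239 CPM, and SNORD17 from 30.8, 32.2 and 31.6 CPM to 72.7, 71.3 and 91.7 CPM. Of 75 snRNA genes 6 were called higher, all copies of U2 or U4, with RNU4-2, a U4 RNA of the spliceosome, up 2.96-fold. Of 17 host genes of snoRNAs 3 were called higher, among them SNHG3, which holds SNORA73B, by 0.69 (1 in most fits without 1 library). With every library thinned to the smallest, SNORD3A had a log2 difference of 1.65 and RNU4-2 of 1.61. The unmapped share moved with these RNAs between n2 and n3. In n1 it was 2.77 to 3.07%, against 2.75 to 3.21% in n2. The summed snoRNA and scaRNA level was 1477 to 1849 CPM in n1, against 1089 to 1204 CPM in n2. The part of the unmapped share was not tested.

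Processed pseudogenes showed the same direction, with 64 of 1029 called higher and 4 lower, against 3.53% and 4.59% of all genes. Their median log2 difference was 0.30. Their summed level was 1053 to 1129 CPM in n2 and 1261 to 1309 CPM in n3. The share of read pairs mapping to more than 1 place was 4.58 to 5.14% in n2 and 5.36 to 5.49% in n3. Of 13 mitochondrially encoded genes 2 were called higher, MT-ND4 and MT-ND5, subunits of complex I, by 0.58 and 0.56. The summed level of the 13 was 4872 CPM in n2 and 6921 in n3 of shSCR, 6050 and 8088 in shG9a_4, and 5752 and 5502 in shG9a_1. The mitochondrial count was 0 without n2 or n3 of shSCR or n3 of shG9a_4, 8 without n3 of shG9a_1 and 10 without that hairpin. The call of MT-ND4 was lost without n2 or n3 of shSCR or n3 of shG9a_4.

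The differences depended on GC content in 2 of the 3 hairpins. Over 13071 protein-coding genes, Spearman's rho of the difference and the GC content of the transcript was 0.237 in shSCR, −0.055 in shG9a_1 and 0.630 in shG9a_4 (a description across genes, which share libraries). Among the fifth of genes with the lowest GC content (30.2 to 40.7%), 14.1% were called lower and 0.842% higher, and among the highest (57.9 to 73.9%), 1.38% and 5.24%. A fit corrected for this, chosen after seeing the data, left a rho of 0.021 and called 1245 genes higher and 1282 lower, 1376 of them among the 1496. It called lower 14 of 19 class II genes and 29 of 44 inflammatory genes. Called higher were 9 of 14 genes of the keratin list, 10 of 11 desmosome genes and 14 of 28 junction genes. So were 21 of 25 cholesterol genes and 18 of 28 NRF2 targets. Under that correction HLA-DRA had a log2 difference of −3.89 and CDH1 of 1.43, whereas CHAF1A (0.15, adjusted p = 0.0530 in edgeR) and PIK3CA (−0.05, adjusted p = 0.513) were no longer called.

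**Figure D5:**
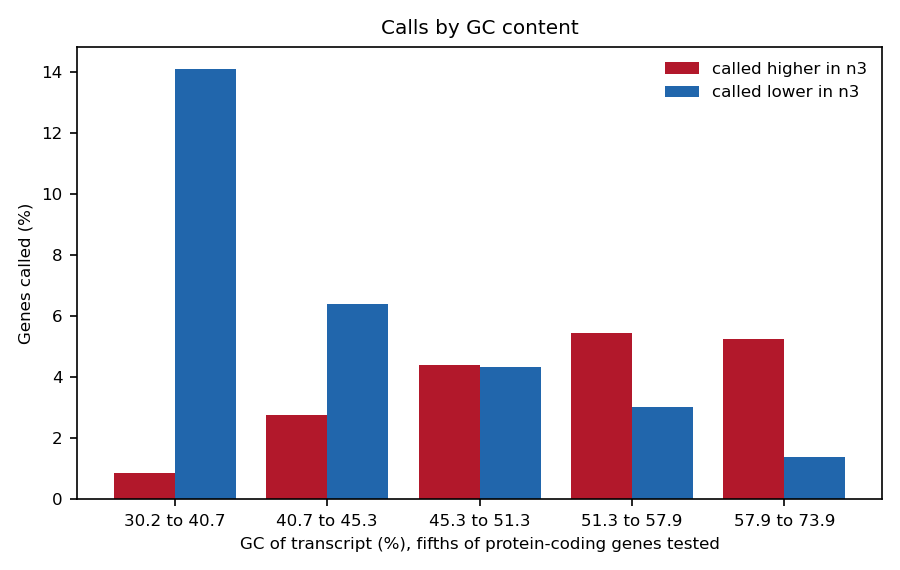
Share of genes called higher and lower in n3, in percent, in 5 equal groups of the protein-coding genes tested by the GC content of their transcripts. The share called lower went from 14.1% in the group with the lowest GC content to 1.38% in that with the highest.

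The 3 libraries numbered n1 had a term of their own in the fit and lay outside the contrast. For 488 of the 650 genes called higher, and for 686 of the 846 called lower, the mean of the n1 libraries lay between those of n2 and n3. For 139 of the higher genes n1 was at or below n2, and for 23 at or above n3. For 88 of the lower genes n1 was at or above n2, and for 72 at or below n3. CIITA in n1 was at 15.3, 18.7 and 13.1 CPM, among the values of n2, and HLA-DRA at 10.2, 14.8 and 6.99 CPM was near them. FN1 in n1 was at 190, 323 and 204 CPM, under its n3 values in all 3 hairpins, and ID2 at 3.92, 8.86 and 5.59 CPM lay around those of n3. CDH1 in n1 was at 18.5, 16.1 and 22.9 CPM, among its n2 values.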

How the data were processed

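Stranded total RNA from 9 cultures was sequenced, and the deposited values are raw read counts per gene that the authors obtained from their alignments; the reverse-strand counts were used (94.74 to 95.06% of stranded reads). Per the submitters' processing notes, hg19 and GRCh37 were the builds named and DESeq, R 3.3.1, edgeR 3.14.0 and STAR 2.5.2a the tools, with no role given. No source used here gives the annotation release.

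Symbols came from a gene name table for 55277 of the 60308 IDs and from GENCODE 29 for another 421, and 99.02% of reads lay on IDs with a symbol. Genes were kept by edgeR's filter on low counts within hairpins and scaled by TMM. The quasi-likelihood F-test in edgeR 4.0.16 (R 4.3.3) was fitted to all 9 libraries with hairpin and replicate number as terms (4 residual degrees of freedom), n3 was contrasted with n2, and p-values were adjusted over all 18435 genes by Benjamini-Hochberg with a threshold of 0.05. The fit was tested on simulated counts with 200 changed genes. Fold changes are from the fit, and CPM are read counts per 1e6 reads of the TMM-scaled library size.

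No libraries of a hairpin were duplicates, with a chi-square of 25.19 or more per degree of freedom. The genes named are the 15 largest changes per direction with at least 1 CPM, the called genes of each list with the smallest p (up to 6), and EHMT2, EHMT1, MYC and PIK3CA. Every other gene named was chosen after its values were seen. The libraries compared and the gene lists were chosen with earlier results of these data known. The class II list and several promoter motifs were added after values were seen. Promoter sequences are RefSeq's (GRCh38.p14). Genes with near-identical copies, among them HLA, keratin, AKR1C, SAA and small RNA genes and pseudogenes, are uncertain. Alternatives used limma 3.58.1 and DESeq2 1.42.0.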

Additional observations from a re-analysis of the deposited data

Results flagged for a closer look

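In 4 of 55 gene lists and RNA classes looked at, hairpins differed in direction between n2 and n3 by more than a set size: with at least 10 genes, a median log2 difference past 0.1, or a log2 ratio of the summed level past 0.2, in each direction. Opposite signs of smaller size were not counted. Each hairpin had 1 library per number, and none of these differences between hairpins was tested. The summed level of nuclear long noncoding RNAs had log2 ratios of −0.03 in shSCR, −0.84 in shG9a_1 and 0.23 in shG9a_4, a gap of 1.07. NEAT1, the scaffold of paraspeckles, was at 1119, 1560 and 1342 CPM in n2 and at 1178, 395 and 1538 CPM in n3, and MALAT1, a nuclear speckle RNA, at 2388, 3197 and 2513 CPM and at 2284, 1918 and 3270 CPM. The summed lincRNA level had log2 ratios of 0.18, −0.40 and 0.51 (gap 0.901). The share of reads in no gene was 13.28, 13.7 and 13.68% in n2 and 13.96, 12.48 and 15.42% in n3, lowest in the n3 library of shG9a_1 and highest in that of shG9a_4. Its part was not tested.

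The median log2 difference of Wnt targets was 0.13, −0.03 and −0.17 (gap 0.299). That of matrix metalloproteinases and their inhibitors was −0.14, −0.12 and 0.11 (gap 0.254).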

How the results depend on the processing

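No paired analysis was possible because the replicate number, which would be the block, was the factor compared; n3 and n2 were paired within hairpins instead, by the hairpin block. Without it, 545 genes were called lower. Without a filter on low counts 2466 genes were called, 1177 higher and 1289 lower. Without the hairpin shSCR 238 were called (89 higher, 149 lower), and without shG9a_4 433 (210 higher, 223 lower). Without shG9a_1, 55.76% of calls were higher, against 657 lower and 828 higher genes. With GC correction, chosen after seeing the data, 2527 were called (1245 higher, 1282 lower). Leaving out 1 library at a time gave 359 to 2313 calls, 162 to 1191 higher and 197 to 1122 lower. The cause was not tested. DESeq2 called 1483 genes, 1294 of them among the 1496, and limma-voom 1427, with 1401 shared. A fit to only the 6 libraries numbered n2 and n3 called 1428, with 1215 shared. Of the genes named by the rule given above, none changed direction under the 22 alternatives while called. Most other genes named were not followed there. HLA-DRA, CIITA, CXCL1, CDH1, EPCAM, KRT17, S100A14, FN1 and SNORD3A were called under each. Depth limits low genes: several class II genes stood on few reads in n3.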

Other observations

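Several of the largest changes lay outside the gene lists. AP1M2, an epithelial adaptor subunit that sorts proteins to the basolateral membrane, was at 0.819, 0.797 and 0.760 CPM in n2 and at 3.11, 2.75 and 3.00 CPM in n3, a 3.71-fold rise. FXYD3, a regulator of the sodium pump, rose 2.94-fold, from 4.16, 5.70 and 6.02 CPM to 16.2, 13.4 and 16.8 CPM. ANKRD2, an ankyrin repeat protein known from muscle, rose 3.04-fold, and SYT8, a synaptotagmin, rose by 1.72 on the log2 scale. All n3 libraries were above all n2 libraries for AP1M2, FXYD3, ANKRD2 and SYT8.

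TRIM31 and ALOX5AP, which were lower in n3 than in n2, were lower still in n1. TRIM31 was at 1.065, 1.98 and 1.55 CPM in n2, 0.242, 0.278 and 0.238 in n3 and 0.124, 0.0816 and 0.0658 in n1. SERPINB2, an inhibitor of plasminogen activators, fell 3.17-fold from n2 to n3 and was at 15.1, 56.7 and 27.2 CPM in n1, the highest library being shG9a_1.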
